A study of Mus musculus with 24 samples.

Results

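The 4 CCAAT/enhancer-binding protein genes described here, Cebpa, Cebpb, Cebpd and Cebpg, are among the 21441 genes measured in intestinal RNA of mice given the vitamin D hormone and of vitamin D-deficient mice. They were chosen by name after their FPKM in treated and deficient libraries had been seen, so the difference between those groups is given for them as a description without a test. Differences between gut regions were not the ground of that choice and were tested. Those tests use the same libraries, so they are not independent of the choice.

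The mice were wild type C57BL6J animals of both sexes, and their poly(A) RNA came from 3 gut regions, duodenum, ileum and colon. Ages ran from 10 to 14 in a unit the labels do not state. Treated mice received 1,25D3 (calcitriol, the active hormone) at 1 ng per g body weight, injected 48, 24 and 6 h before the end of the experiment. Deficient mice have no treatment in their labels, although 3 of the library names in each region call them vehicle. Duodenum and colon have 4 treated and 4 deficient libraries each, and the ileum has 4 treated and 3 deficient. In each region 1 treated library (treated 1) and 3 deficient libraries (deficient 1 to 3) carry serial numbers, while 3 treated libraries (3xD5711, 3xD5720, 3xD5734) and the deficient library minusD5718 carry 4-digit numbers. The ileum lacks minusD5718. The naming scheme therefore nearly coincides with treatment, and for the members and the lists of related genes, differences within each scheme are given beside those over all libraries. Within the 4-digit numbers the deficient side is 1 library, and the ileum has none. The deposited values trace back to 11318677 to 28996786 whole reads per library, counted over the 14274 of 17358 genes for which reads could be recovered. Small intestine markers summed to at least 10996.5 FPKM in each duodenal and ileal library and at most 1234 FPKM in the colonic ones. Pancreas markers were uneven within a region. Their colonic sums spanned 137 to 20497 FPKM (treated) and 182 to 3206 FPKM (deficient). Duodenal sums spanned 599 to 22732 FPKM (treated) and 4808 to 31446 FPKM (deficient), while no ileal sum exceeded 586 FPKM. Stomach marker sums varied from 34.6 to 10194 FPKM across duodenal libraries, with at most 37.9 FPKM elsewhere. The part of these markers in the regional differences was not tested.

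C/EBP proteins are basic leucine zipper transcription factors that bind DNA as dimers with each other or with related factors. C/EBP alpha is known for driving terminal differentiation of adipocytes, hepatocytes and granulocytes, while C/EBP beta and delta are immediate responders to inflammatory cytokines and glucocorticoids. C/EBP gamma has no strong activation domain of its own and acts mainly as a dimer partner, with ATF4 among others. C/EBP beta has also been described as a cofactor of the vitamin D receptor at the Cyp24a1 promoter.

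On NCBIM37 with the gencode vM1 annotation, Cebpa is a single-exon gene on chromosome 7 (35904312 to 35906945, plus strand) and Cebpb a single-exon gene on chromosome 2 (167514415 to 167515918, plus strand). Cebpg lies on chromosome 7 (35831441 to 35841522, minus strand), 62789 bp from Cebpa, and its transcripts have up to 2 exons. Cebpd lies on chromosome 16 (15887379 to 15888559, plus strand), and that release lists its locus as a pseudogene. The labels do not say how reads shared with other genes were counted.

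The 250 bases before the start of the gene are shown for the 3 of 4 members with an entry in the RefSeq promoter table (GRCm38.p6), 5′ to 3′ on the gene's own strand, because the members differ in the elements next to their start. Capitals mark matches on either strand to CCAAT, to TGACG (the core of a cAMP response element), to TATAAA (the TATA box) and to AGGTCA (a site that the vitamin D receptor and other nuclear receptors can bind). A match on the opposite strand appears as its reverse complement, such as ATTGG for the first. None of these matches overlap.
Cebpa, chr7:35119043-35119292, plus strand: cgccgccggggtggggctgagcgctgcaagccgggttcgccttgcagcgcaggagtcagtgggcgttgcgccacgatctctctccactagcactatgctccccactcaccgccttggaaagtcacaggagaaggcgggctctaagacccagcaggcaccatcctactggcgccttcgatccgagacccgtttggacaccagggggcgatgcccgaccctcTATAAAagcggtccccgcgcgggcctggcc
Cebpb, chr2:167688665-167688914, plus strand: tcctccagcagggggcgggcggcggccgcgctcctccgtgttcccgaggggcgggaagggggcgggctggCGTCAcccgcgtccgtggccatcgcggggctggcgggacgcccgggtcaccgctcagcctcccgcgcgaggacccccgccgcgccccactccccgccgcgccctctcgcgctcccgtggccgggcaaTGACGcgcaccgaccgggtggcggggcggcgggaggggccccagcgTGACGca
Cebpg, chr7:35056567-35056816, minus strand: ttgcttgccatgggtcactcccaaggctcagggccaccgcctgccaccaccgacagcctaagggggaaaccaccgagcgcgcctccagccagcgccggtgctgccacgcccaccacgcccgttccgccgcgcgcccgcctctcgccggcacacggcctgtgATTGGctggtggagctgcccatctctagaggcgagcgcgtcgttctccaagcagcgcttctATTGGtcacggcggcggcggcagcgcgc

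Each of the 3 windows held a different element. Cebpa had 1 TATAAA match starting 30 bases before the gene, a motif found in 12.4% of 32851 such windows. Cebpb had 3 TGACG matches, 180, 53 and 7 bases before the gene, the first of them on the opposite strand, against 17.8% of windows with at least 1. Cebpg had 2 CCAAT matches, 89 and 28 bases before the gene and both on the opposite strand, against 33.8% of windows with at least 1. AGGTCA, present in 14.0% of windows, was in none of the 3. GC content was 66.4% for Cebpa, 81.6% for Cebpb and 70.8% for Cebpg, against a median of 52.4% over all windows. A match describes the sequence and is not evidence of binding.

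Cyp24a1, which encodes the enzyme that inactivates calcitriol, was read first as a check of the labels. Its level was 313, 64.9, 367 and 641 FPKM (fragments scaled to transcript length and library depth) in the treated duodenum (treated 1, 3xD5711, 3xD5720 and 3xD5734) and at most 0.418 FPKM in the deficient duodenum. The treated ileum held 6.12, 40.3, 543 and 5.34 FPKM and the treated colon 2.67, 108, 370 and 277 FPKM, against at most 0.153 and 0.0814 FPKM in the deficient libraries. The groups did not overlap in any region, as for 1.99%, 3.35% and 2.22% of all genes tested there with treated libraries above. In the duodenum Cyp24a1 passed limma's test over all genes (log2 difference 7.91 ± 0.59 SE, adjusted p = 0.00340, higher in 4 of 4 treated libraries). The voom test on recovered reads did not call it (adjusted p = 0.181). Vdr, the vitamin D receptor, differed by -0.30 ± 0.25, -0.09 ± 0.22 and 0.05 ± 0.19 on the log2 scale in the duodenum, ileum and colon, and none of these passed the test.

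The fit across all genes called few differences between treated and deficient libraries. For the duodenum limma called 3 genes (0.0256% of 11734 tested, with 1103 at an unadjusted p under 0.05). For the ileum it called 0 (0% of 12149, with 709 at an unadjusted p under 0.05) and for the colon 0 (0% of 12746, with 746 at an unadjusted p under 0.05). The voom test on recovered reads called 0 genes in each region, with 816, 519 and 599 at an unadjusted p under 0.05. None of the 4 C/EBP genes was called in any region, and since this contrast chose them, nothing is read from that count.

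Cebpd, the C/EBP delta gene, had a higher treated than deficient mean in all 3 regions. In the duodenum its level was 8.06, 17.8, 40.3 and 17.5 FPKM in treated 1, 3xD5711, 3xD5720 and 3xD5734, and 6.16, 5.03, 7.49 and 11.7 FPKM in minusD5718 and deficient 1, 2 and 3. The 3 treated libraries with 4-digit numbers lay above every deficient library there, and treated 1 lay among them. In the ileum the treated values were 12.3, 60.7, 56.9 and 12.1 FPKM and the deficient values 22.2, 9.28 and 12.8 FPKM. Only 3xD5711 and 3xD5720 were high in that region, and the other 2 treated libraries lay within the deficient range. In the colon the treated values were 41.2, 49.4, 54.8 and 26.39 FPKM and the deficient values 20.5, 26.45, 18.3 and 16.4 FPKM. The 2 colon groups met only at 3xD5734, which lay just below deficient 1.

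The duodenal mean of Cebpd was 2.76-fold higher in treated libraries (20.9 ± 13.7 against 7.59 ± 2.90 FPKM, SD, n = 4 and 4). The ratio of means was 2.40 in the ileum (35.5 ± 27.0 against 14.8 ± 6.70 FPKM, SD, n = 4 and 3) and 2.10 in the colon (43.0 ± 12.4 against 20.4 ± 4.36 FPKM, SD, n = 4 and 4). On log2(FPKM + 1) the difference was 1.20 ± 0.42 (SE) for duodenum, 0.92 ± 0.63 for ileum and 1.01 ± 0.23 for colon. These values stood at the 99.5, 99.3 and 99.6 percentiles of all genes tested in the region. The percentiles were 99.8, 0.74 and 99.0 for Cebpa, 94.1, 32.4 and 65.9 for Cebpb, and 29.9, 61.3 and 65.0 for Cebpg. Because the members were chosen on this difference, its rank is a description and no support for it. Among serial libraries alone the Cebpd difference was 0.07 (duodenum), -0.16 (ileum) and 1.01 (colon), so the sign turned in the ileum. Within the 4-digit libraries it was 1.76 in the duodenum and 0.98 in the colon. The colon value was thus nearly the same in both naming schemes, while the values of the duodenum and ileum came from the 4-digit libraries. The part of the naming scheme in the duodenal and ileal values cannot be told apart from treatment with 1 serial treated library per region.

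**Figure D1:**
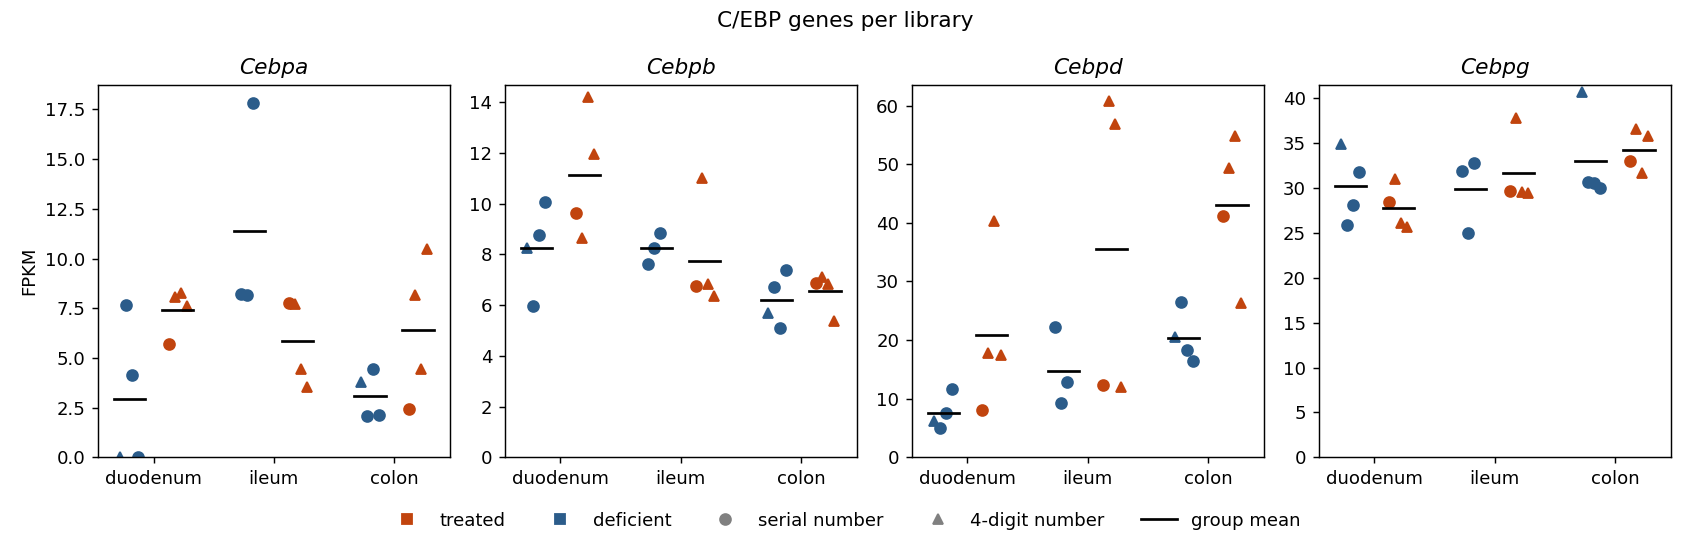
Level of each C/EBP gene in FPKM (vertical axes, linear from 0) in every library of the duodenum, ileum and colon; red points are treated and blue points deficient libraries, circles carry serial and triangles 4-digit numbers, and black lines are group means. Cebpd in the ileum is split, with 3xD5711 and 3xD5720 at 60.7 and 56.9 FPKM and the other treated libraries at 12.3 and 12.1 FPKM.

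Cebpb, the C/EBP beta gene, had treated and deficient levels that lay close together outside the duodenum. Its duodenal level was 9.64, 8.64, 14.2 and 12.0 FPKM in treated 1, 3xD5711, 3xD5720 and 3xD5734 and 8.27, 5.96, 8.76 and 10.1 FPKM in the deficient libraries. In the ileum it was 6.76, 11.01, 6.84 and 6.36 FPKM in treated and 7.63, 8.24 and 8.85 FPKM in deficient libraries. In the colon it was 6.87, 7.09, 6.84 and 5.39 FPKM in treated and 5.70, 6.70, 5.08 and 7.39 FPKM in deficient libraries. The groups overlapped in all 3 regions, and 3xD5711 alone stood above the others in the ileum. For duodenum, ileum and colon the log2 difference was 0.39 ± 0.18, -0.11 ± 0.19 and 0.07 ± 0.14 (SE), and the last became -0.05 on the TPM scale (FPKM rescaled to 1 total in every library). Within the serial libraries the values were 0.23, -0.25 and 0.10, and within the 4-digit ones 0.42 for duodenum and 0.14 for colon.

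Cebpg, the C/EBP gamma gene, had the highest median level of the 4 and differed little between the groups. It ranged from 25.0 to 40.6 FPKM over the 23 libraries. On the TPM scale its range was wider, from 30.0 to 64.7. In the duodenum it was 28.4, 30.9, 26.1 and 25.7 FPKM in treated and 34.8, 25.9, 28.1 and 31.7 FPKM in deficient libraries. In the ileum it was 29.6, 37.7, 29.6 and 29.4 FPKM in treated and 31.8, 25.0 and 32.8 FPKM in deficient libraries. In the colon it was 33.0, 36.5, 31.7 and 35.8 FPKM in treated and 40.6, 30.6, 30.5 and 29.9 FPKM in deficient libraries. The groups overlapped everywhere, and the log2 differences of -0.11 ± 0.12, 0.08 ± 0.15 and 0.06 ± 0.12 (SE) were smaller than their errors. The colon value became -0.07 on the TPM scale. Serial libraries gave -0.0034, -0.0015 and 0.12, and 4-digit libraries -0.33 for duodenum and -0.23 for colon, so the colon sign differed between the naming schemes.

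**Figure D2:**
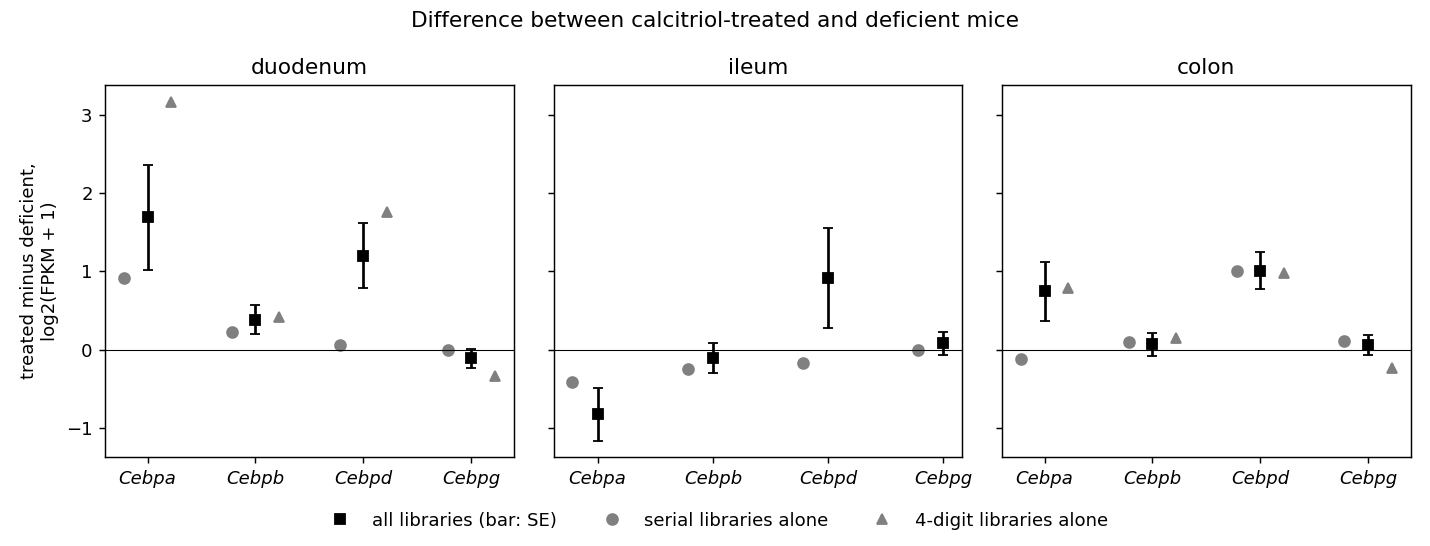
Treated minus deficient difference of each C/EBP gene on log2(FPKM + 1) (vertical axis) in the 3 regions; black squares with bars are the value over all libraries with its SE, gray circles the value within the serial libraries and gray triangles within the 4-digit libraries. For Cebpd the gray circle lies near 0 for duodenum (0.07), below 0 for ileum (-0.16) and at 1.01 for colon.

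Cebpa, the C/EBP alpha gene, had values of an unusual kind that limit every comparison made with it. Its level in the duodenum was 5.69, 8.06, 8.28 and 7.60 FPKM in treated libraries, whereas minusD5718 and deficient 3 are listed at 0 and deficient 1 and 2 at 7.64 and 4.15 FPKM. In the ileum it was 7.77, 7.72, 4.43 and 3.55 FPKM in treated and 8.24, 8.15 and 17.8 FPKM in deficient libraries. In the colon it was 2.43, 8.18, 4.47 and 10.5 FPKM in treated and 3.81, 2.08, 4.43 and 2.12 FPKM in deficient libraries. The groups failed to overlap only in the ileum, where all 4 treated libraries lay below all 3 deficient ones, as did 3.21% of all genes tested there.

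The deposited FPKM values move in steps of whole units, and the number of units behind each value could be recovered for all 4 genes. A unit is what 1 read would add to the value. Cebpb took 132 to 504 units per library, Cebpd 205 to 2335 and Cebpg 1887 to 5450. Cebpa took 0 to 1289, but in 18 of the 21 libraries above 0 its number lay within 1% of a whole multiple of 163. The multiples in those 18 were 1, 2, 3, 4 and 5, so that 326 units stood behind the value of treated 1, 3xD5711 and 3xD5734 in the duodenum and 3xD5711 in the colon alike. The 3 exceptions were deficient 2 of the duodenum (293 units, 10.1% from a multiple), deficient 1 of the colon (152 units, 6.75%) and deficient 3 of the ileum (1289 units, 1.15%). Among 9358 genes above 0 in at least 18 libraries and searched for such a step, 5 showed one (0.0534%), the others being Akna, Il18bp, Limch1 and Rapgef2. A first search took genes above 0 in at least 12 libraries, without the 25000 bp limit on implied gene length, and found 60 of 9515 (0.631%). Both criteria were tightened after Cebpa and that first search had been seen, and how rare such steps are depends on them. The cause of the steps was not tested.

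**Figure D3:**
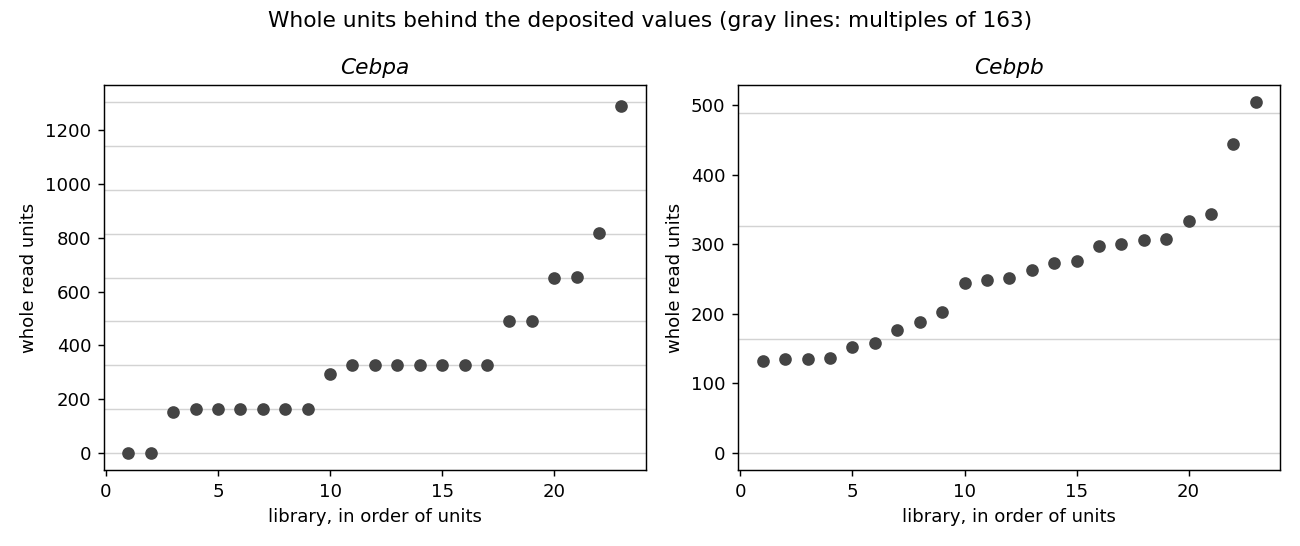
Whole units behind the deposited value of Cebpa (left) and Cebpb (right) in each of the 23 libraries, in order of size (vertical axis, units; gray lines, multiples of 163). Most Cebpa points lie in flat runs on the lines, 2 of them at 0, with those at 152, 293 and 1289 units more than 1% off, while the Cebpb points rise from 132 to 504 without such runs.

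With that limit, the treated minus deficient difference of Cebpa on the log2 scale was 1.69 ± 0.67, -0.82 ± 0.33 and 0.75 ± 0.38 (SE) for duodenum, ileum and colon. Within the serial libraries the values were 0.92, -0.41 and -0.12, so the colon value changed sign there. Within the 4-digit libraries they were 3.17 for duodenum and 0.79 for colon. Each rests on a few steps of 163 units, and the duodenal value rests on the 2 libraries listed at 0.

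Levels across regions were compared on TPM made within each library, which removes the constant by which the authors' separately scaled tables differ. On that scale Cebpg had a median of 45.0 TPM over the 23 libraries, Cebpd 26.6, Cebpb 11.6 and Cebpa 8.38. Cebpd was ordered from the treated colon (64.2 ± 19.4 TPM, SD, n = 4) through the treated ileum (47.2 ± 35.3, n = 4), deficient colon (33.6 ± 7.73, n = 4), treated duodenum (27.0 ± 14.3, n = 4) and deficient ileum (20.5 ± 11.6, n = 3) to the deficient duodenum (11.4 ± 3.24, n = 4). No neighbours in that order differed by more than the larger of their SDs. Cebpb was ordered from the treated duodenum (14.9 ± 1.58 TPM, SD, n = 4) and deficient duodenum (12.5 ± 1.44, n = 4) through the deficient ileum (11.2 ± 1.44, n = 3), treated ileum (10.6 ± 3.30, n = 4) and deficient colon (10.2 ± 1.58, n = 4) to the treated colon (9.79 ± 1.48, n = 4). Its 2 duodenal groups were the only neighbours further apart than the larger SD. Cebpg ran from 54.0 ± 7.35 TPM (SD, n = 4) in the deficient colon to 38.1 ± 7.34 (n = 4) in the treated duodenum, again with no neighbours apart. Cebpa lay between 12.2 and 19.2 TPM in the deficient ileum, between 5.13 and 10.8 in the treated ileum, and between 0 and 13.4 in the deficient duodenum.

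Regional differences depended on what was held constant. The median gene was 0.51 lower on the log2 scale in the duodenum than in the colon in both deficient and treated libraries, and 0.52 and 0.35 lower in the ileum than in the colon. Median-ratio scaling sets that median near 0, so the values that bear on a direction or a call are given on both scales, with adjusted p from limma in 1 fit over all 23 libraries.

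Cebpd was lower in the duodenum than in the colon by more than the median gene on both scales. In deficient libraries the TPM difference was -1.49 ± 0.46 (SE, adjusted p = 0.00870), in a comparison that called 61.1% of 14082 genes. It was lower in 4 of 4 duodenal libraries than in any colonic one, but the share of all genes separated in that way was not counted. On the median-ratio scale the difference was -0.91 (adjusted p = 0.136) and no longer passed. In treated libraries it was -1.31 ± 0.46 (limma, adjusted p = 0.0187), where 61% of genes were called, and -0.70 (adjusted p = 0.253) on the median-ratio scale. That call was also lost without treated 1 of the duodenum (-0.99, adjusted p = 0.078) or without 3xD5711 of the colon (-1.17, adjusted p = 0.0564). Differences of Cebpd between duodenum and ileum (-0.70 and -0.57) and between ileum and colon (-0.79 and -0.74) did not pass in deficient or treated libraries. After median-ratio scaling they were -0.68 and -0.38 (duodenum minus ileum) and -0.23 and -0.32 (ileum minus colon). Without 3xD5711 of the ileum the treated ileum was lower than the treated colon by TPM (-1.14, adjusted p = 0.0488).

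Cebpb was higher in the duodenum than in the colon in treated libraries on both scales. There the TPM difference was 0.56 ± 0.17 (SE, limma, adjusted p = 0.00685), where 61% of genes were called, and it was 1.09 (adjusted p = 2.1e-05) on the median-ratio scale. Every duodenal library lay above every colonic one by TPM, but the share of all genes separated in that way was not counted. In deficient libraries, where 61.1% were called on TPM, the difference was 0.28 ± 0.17 (adjusted p = 0.151) on TPM and 0.77 (adjusted p = 0.000780) after median-ratio scaling. Cebpb was also higher in the treated duodenum than in the treated ileum, by 0.49 ± 0.17 (SE, limma, adjusted p = 0.0436), where 20.1% of genes were called, and by 0.66 (adjusted p = 0.00641) on the median-ratio scale. The TPM call was lost on leaving out any 1 of 9 libraries, with adjusted p from 0.0504 to 0.123: treated 1, 3xD5720, 3xD5734, minusD5718 or deficient 2 of the duodenum, treated 1, 3xD5720 or 3xD5734 of the ileum, or deficient 1 of the colon. In the fit of the 2 groups alone the adjusted p was 0.0979. Between ileum and colon the Cebpb difference in deficient libraries was 0.12 on TPM and 0.62 (adjusted p = 0.0144) after median-ratio scaling, in a comparison that called 55.2% of genes on TPM, and in treated libraries, where 44.9% were called, it was 0.07 and 0.43 (adjusted p = 0.0592).

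Cebpg changed direction between the scales. In treated libraries it was lower in the duodenum than in the colon by TPM (-0.43 ± 0.16 SE, limma, adjusted p = 0.0264) and higher, by 0.17 (adjusted p = 0.257), after median-ratio scaling. The TPM comparison of those regions called 61% of genes in treated and 61.1% in deficient libraries. In deficient libraries the Cebpg difference was -0.22 (adjusted p = 0.250) by TPM and 0.35 (adjusted p = 0.0231) after median-ratio scaling. Between ileum and colon in deficient libraries it was -0.41 (adjusted p = 0.0503) by TPM, -0.33 (adjusted p = 0.0247) with the library number as a block and 0.15 (adjusted p = 0.443) after median-ratio scaling. No regional direction is therefore given for Cebpg. The TPM call was also lost without any 1 of 4 libraries, 3xD5720 or 3xD5734 of the duodenum and 3xD5711 or 3xD5734 of the colon, with adjusted p from 0.0696 to 0.103.

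Cebpa was lower in the deficient duodenum than in the deficient ileum (-2.27 ± 0.69 SE, limma, adjusted p = 0.0283, where 15.6% of genes were called), a value that includes the 2 libraries listed at 0. The same deficient values entered the treated minus deficient differences on which Cebpa was chosen. Without minusD5718 it was -1.71 (adjusted p = 0.110), without deficient 3 of the duodenum -1.71 (adjusted p = 0.0886), and without each ileal deficient library in turn the adjusted p was 0.0629, 0.0657 and 0.0827. With the library number as a block it was -2.03 (adjusted p = 0.0565), and in the fit of the 2 groups alone the adjusted p was 0.134. The call was kept after median-ratio scaling (-2.10, adjusted p = 0.0169) and by voom on recovered reads (-5.26, adjusted p = 0.00936). In treated libraries the Cebpa difference was 0.35 ± 0.64 (SE, limma, adjusted p = 0.725) on TPM and 0.52 after median-ratio scaling. Duodenum minus colon in deficient libraries was -0.88 (adjusted p = 0.235), -0.34 (adjusted p = 0.658) after median-ratio scaling, and -1.61 (adjusted p = 0.0181) without deficient 1 of the duodenum. Ileum minus colon there was 1.39 (adjusted p = 0.0921) on TPM and 1.77 (adjusted p = 0.0339) after median-ratio scaling.

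**Figure D4:**
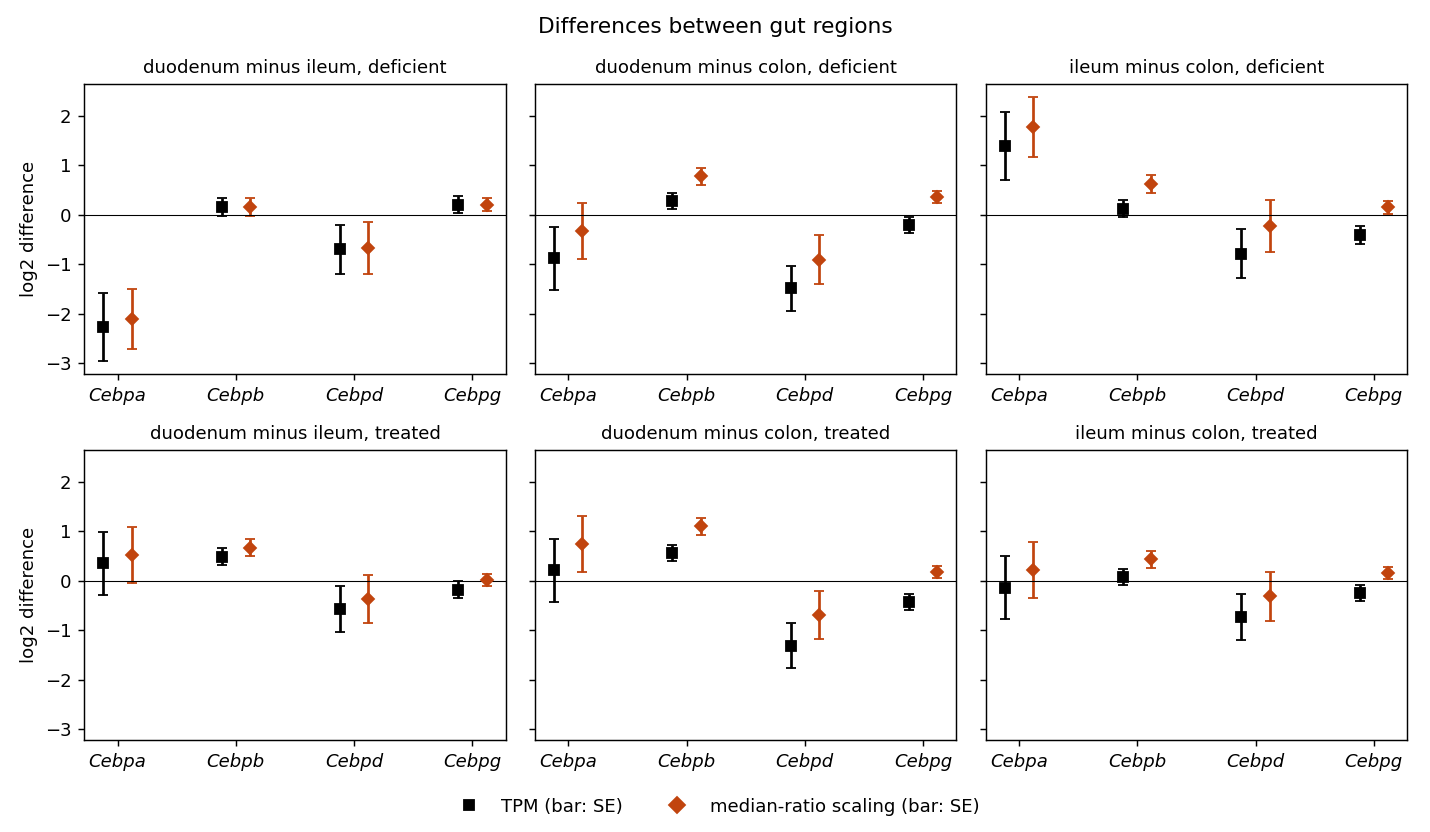
Differences of the C/EBP genes between gut regions on a log2 scale (vertical axes), in deficient (top) and treated (bottom) libraries, as TPM (black squares) and after median-ratio scaling (red diamonds), with SE bars. Cebpd is below 0 and Cebpb above 0 on both scales for duodenum minus colon, whereas Cebpg lies on opposite sides of 0 on the 2 scales.

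Among the other family members and partners, 3 with regional differences are given here, chosen after their values were seen. All are on TPM and to be read against the shift of the median gene above. The fit called 61.1% (deficient) and 61% (treated) of genes for duodenum minus colon, and 55.2% and 44.9% for ileum minus colon. Cebpz, Trib2, Atf3 and Atf5 also passed for duodenum minus colon in both, at -0.81, -0.80, -1.08 and -1.30 in deficient libraries. Ddit3, Atf4 and Nfil3 did not pass there. Trib3, a pseudokinase of the Tribbles group, was higher in the duodenum than in the colon by 3.23 (deficient) and 2.99 (treated) on log2 TPM and higher in the ileum than in the colon by 3.12 and 2.80, and each of the 4 passed limma's test. Trib1, whose protein directs C/EBP alpha to degradation, was lower in the duodenum than in the colon by TPM (-1.43 in deficient, adjusted p = 0.000108, and -0.69 in treated libraries, adjusted p = 0.0294). The treated value lies close to the -0.51 of the median gene. Cebpe, the granulocyte member of the family, was higher in the duodenum than in the colon by 0.88 (adjusted p = 0.00764) and 0.95 (adjusted p = 0.00454). Its level was near the floor, with means of 1.52 (deficient) and 1.21 TPM (treated) in the duodenum and 0.312 and 0.125 TPM in the colon.

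Within groups, Cebpb and Cebpd varied together moderately and alike in each region. After subtraction of each group's mean, their correlation over the 23 libraries was r = 0.47, and 0.50, 0.48 and 0.50 within duodenum, ileum and colon. The other 5 pairs of members had r between -0.17 and 0.19 over all libraries, but their values differed by region. Cebpb and Cebpg had r = 0.78 in the ileum and -0.59 in the duodenum, and Cebpa and Cebpg 0.82 in the colon. In the duodenum Cebpa and Cebpb had r = -0.60 and Cebpd and Cebpg -0.58. Each regional value rests on 7 or 8 libraries. The points of a library share its depth, and same-numbered libraries may share an animal, which the labels do not state, so the values are descriptive. Among 12494 genes the closest to Cebpd were Wdr92 (r = 0.85), Gadd45g (r = 0.80) and Gadd45b (r = 0.80), the last a pair of stress-induced growth arrest genes. In the colon alone r was 0.85 for Wdr92 but 0.40 for Gadd45g and 0.46 for Gadd45b. Wdr92 in the ileum was 25.2, 64.9, 56.1 and 24.9 FPKM in treated 1, 3xD5711, 3xD5720 and 3xD5734, high in the same 2 libraries as Cebpd. Gadd45b in the duodenum was 12.0, 16.1, 44.9 and 18.8 FPKM in the same order, highest in 3xD5720 as was Cebpd. Wdr92 and Gadd45b were picked for their r with Cebpd over these libraries, so shared high libraries follow from that choice. The closest to Cebpb were H1fx (r = 0.72), Trabd (r = 0.71) and 2810453I06Rik (r = 0.70), and the closest to Cebpg were Tmem55a (r = 0.93), Paip1 (r = 0.92) and Zfp58 (r = 0.91). Within a region r fell to 0.10 for H1fx (duodenum) and 0.36 for 2810453I06Rik (colon), while the genes closest to Cebpg kept at least 0.82. All r are on TPM, which divides by each library's FPKM total, so genes of steady FPKM share that divisor. In the treated duodenum Tmem55a was 11.9 to 13.5 FPKM but 13.7 to 19.9 TPM, and Cebpg 25.7 to 30.9 FPKM but 30.0 to 46.2 TPM. The part of the divisor in r was not tested. The closest to Cebpa were Ubb (r = 0.79), 5330426P16Rik (r = 0.76) and D0H4S114 (r = 0.74), with the limit of its stepped values. In the ileum alone these had r = 0.34, -0.03 and 0.48.

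Genes known to act with, before or after the C/EBP factors were read from 7 lists, and in the contrast of treated with deficient libraries only Cyp24a1 among all of them was called. Of the family members and partners, 5 of 10 tested in the duodenum, 2 of 8 in the ileum and 3 of 8 in the colon had a positive difference, with medians of -0.01, -0.09 and -0.13, against 0.01, 0.01 and -0.01 over all genes tested. Within the serial libraries 6 of 10, 5 of 8 and 6 of 8 were positive, and within the 4-digit ones 7 of 10 (duodenum) and 4 of 8 (colon). The smallest p among them belonged to Atf4, the amino acid response factor, in the ileum (0.49 ± 0.23 SE) and Trib1 in the duodenum (0.41 ± 0.20 SE), neither of which passed. Of the cytokines, receptors and factors that induce Cebpb or Cebpd, 3 of 10, 12 of 12 and 5 of 12 were positive in duodenum, ileum and colon, with medians of -0.13, 0.24 and -0.08. Serial libraries alone gave 3 of 10, 8 of 12 and 3 of 12, and 4-digit libraries 3 of 10 and 8 of 12. Creb3l3, a membrane-bound CREB-family factor of liver and gut, had the smallest p there (0.33 ± 0.13 SE in the duodenum).

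Acute-phase and inflammatory genes that C/EBP beta and delta are known to activate were positive for 5 of 8 in the duodenum, 11 of 12 in the ileum and 10 of 12 in the colon, with medians of 0.36, 0.61 and 0.55, and none passed the test. Hp, the haptoglobin gene, was 59.3, 67.1, 105 and 75.3 FPKM in treated and 40.7, 42.4 and 11.9 FPKM in deficient ileum, without overlap, as for 3.35% of genes tested there (1.41 ± 0.42 SE, adjusted p = 0.706). Serpina3n was 15.5, 53.5, 79.7 and 14.9 FPKM in the treated ileum against 13.1, 11.5 and 7.84 FPKM. Its 2 high libraries, 3xD5711 and 3xD5720, were those with high Cebpd. Lcn2, the lipocalin of neutrophils and stressed epithelium, was 265, 365 and 273 FPKM in 3xD5720 of duodenum, ileum and colon and at most 14.6 FPKM in every other library. It was singled out after its values were seen. Library 3xD5720 also had the highest or second highest Cebpd in each region. Within the serial libraries 0 of 8, 5 of 12 and 9 of 12 of this list were positive, with medians of -0.87, -0.05 and 0.08, and within the 4-digit libraries 6 of 8 in the duodenum and 11 of 12 in the colon, with medians of 1.09 and 1.135.

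Common targets of the glucocorticoid receptor, whose ligand also induces Cebpd and Cebpb, were positive for 10 of 10 tested in the duodenum, 9 of 9 in the ileum and 10 of 10 in the colon, with medians of 1.05, 0.97 and 0.40, and none passed. Of the 15 lists, this one and the pancreas markers were wholly on 1 side in all 3 regions, which was noticed after all had been computed. Errfi1, a feedback inhibitor of EGF receptor signalling, was 21.3, 22.3, 40.7 and 33.4 FPKM in treated and 16.2, 15.1, 14.0 and 9.29 FPKM in deficient duodenum (1.03 ± 0.24 SE, adjusted p = 0.479), and Klf9 there differed by 0.48 ± 0.15 (adjusted p = 0.499). Among serial libraries 5 of 10, 4 of 9 and 3 of 10 were positive, with medians of -0.05, -0.04 and -0.23, and within the 4-digit libraries 8 of 10 in the duodenum and 7 of 10 in the colon, with medians of 0.58 and 0.17. In the duodenum the list thus differed more within the 4-digit than within the serial libraries, as Cebpd did. In the ileum neither the list median nor the Cebpd difference was positive within the serial libraries. No 4-digit deficient library exists there for comparison. In the colon the 2 parted, with list medians of -0.23 (serial) and 0.17 (4-digit) against Cebpd differences of 1.01 and 0.98. The part of the list in the Cebpd values was not tested.

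Metabolic targets of C/EBP alpha and beta were mixed, positive for 5 of 11, 6 of 11 and 3 of 10 in duodenum, ileum and colon, with medians of -0.20, 0.03 and -0.12. Pck1, the first step of gluconeogenesis, was 58.4, 69.7, 101 and 116 FPKM in treated and 38.9, 36.5 and 8.67 FPKM in deficient ileum (1.79 ± 0.50 SE, adjusted p = 0.706). Fasn, the fatty acid synthase, was 17.6, 15.7, 11.6 and 15.2 FPKM in treated and 19.1, 24.4, 23.6 and 21.9 FPKM in deficient colon (-0.54 ± 0.14 SE, adjusted p = 0.707). Both separated the groups in those regions without passing the test, as did 3.35% of genes with treated libraries above in the ileum and 2.32% with treated libraries below in the colon. Serial libraries gave 3 of 11, 10 of 11 and 3 of 10 positive for this list, and 4-digit libraries 7 of 11 and 3 of 10. Amino acid response genes, bound by ATF4 with C/EBP beta or gamma, were positive for 7 of 8, 6 of 10 and 8 of 10, with medians of 0.35, 0.08 and 0.16, and Nupr1 in the colon (0.68 ± 0.28 SE) and Phgdh in the duodenum (0.53 ± 0.25 SE) did not pass. Within serial libraries 4 of 8, 1 of 10 and 5 of 10 were positive, and within 4-digit libraries 6 of 8 and 9 of 10.

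Because the samples were bulk tissue, fewer cells of a type and less RNA per cell cannot be told apart. Adipocytes and myeloid cells express C/EBP genes strongly, and their markers were read beside the members. The 8 adipocyte markers summed to 347 to 468 FPKM in treated and 163 to 331 FPKM in deficient colon without overlap, to 405 to 670 against 357 to 474 in the ileum, and to 154 to 215 against 83.2 to 168 in the duodenum. Most of the sum was Fabp4, a fatty acid-binding protein gene, at 214 to 314 FPKM in treated and 113 to 218 FPKM in deficient colon, which overlapped (0.75 ± 0.23 SE). In the duodenum most of it was Fabp4 and Cidec, a lipid droplet protein gene (0.75 ± 0.25 SE). None of the adipocyte markers tested in the colon separated the groups by itself, where 2.22% of all genes did with treated libraries above. How often sums over such lists separate the groups was not counted. Plin1, the lipid droplet coat gene, was 3.35, 1.77, 1.69 and 4.26 FPKM in treated and 2.14, 1.64, 4.85 and 3.36 FPKM in deficient colon. Positive differences were seen for 6 of 6 tested in the colon within each naming scheme and for 5 of 6 over all libraries. Adipoq, the adipocyte hormone, was 21.7, 15.7, 13.7 and 20.7 FPKM in treated and 9.81, 6.34, 16.3 and 15.2 FPKM in deficient colon, and Lep was at or below 2.25 FPKM there. The 9 myeloid markers in the tables summed to 155 to 250 FPKM in treated and 152 to 246 FPKM in deficient colon, and to 135 to 202 against 102 to 195 in the ileum. Myeloid markers were positive for 2 of 7, 6 of 8 and 2 of 7 tested in duodenum, ileum and colon, and adipocyte markers for 5 of 5, 5 of 7 and 5 of 6. Fibroblast and muscle markers were positive for 6 of 9, 2 of 9 and 4 of 9. Among them Dcn, the decorin gene, had the smallest p, in the colon (0.76 ± 0.17 SE, adjusted p = 0.599). Epithelial markers were positive for 3 of 9, 0 of 9 and 2 of 9, small intestine markers for 6 of 9, 3 of 9 and 5 of 7, and colon markers for 5 of 6, 5 of 7 and 2 of 8. Stomach markers were positive for 6 of 6, 2 of 2 and 0 of 1, and pancreas markers for 0 of 9 in each region, with medians of -0.67, -1.59 and -0.99. Several of these counts turned around within a naming scheme. Pancreas markers were positive for 9 of 9 in serial (median 0.81) and 0 of 9 in 4-digit libraries (-1.85) of the duodenum, and for 0 of 9 in serial (-4.06) and 9 of 9 in 4-digit libraries (2.44) of the colon. Stomach markers of the duodenum were positive for 3 of 6 and 0 of 6, and epithelial markers of the colon for 8 of 9 and 0 of 9, in serial and 4-digit libraries. Genes of the vitamin D system, Cyp24a1 and Vdr included, were positive for 5 of 7, 4 of 6 and 5 of 7. No marker passed the test. The part of the adipocyte markers in the colonic Cebpd values was not tested.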

How the data were processed

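Poly(A) RNA of 24 labelled samples was measured, of which 23 libraries were used. The deposited tables hold FPKM per gene symbol by the authors, and CLC Genomics Workbench did the mapping, per the labels' protocols. Without giving roles, mm9, DESeq2, DESeq 1.14.0 and kallisto 0.45.0 appear in the submitters' processing notes. All 171528 values of the 8-library ileum table repeat those of the duodenum, so its 8 columns were not used and ileal values come from the 7-library table with 3 deficient libraries. Columns named vehicle were taken as deficient, and no column is tied to a labelled replicate, so sex and age could not be assigned. The labels do not say that replicates are separate animals, so p-values measure the spread between these samples, which may be technical.

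Treated and deficient libraries were compared within a region on log2(FPKM + 1) for genes reaching 1 FPKM in 3 or more libraries, with R 4.3.3 and limma 3.58.1 (a trended eBayes fit), two-sided, with Benjamini-Hochberg adjustment at 0.05. Regions were compared on log2(TPM + 1) in 1 fit of 6 group means over 23 libraries, with TPM made from FPKM here. Fold changes on these scales understate low genes. Summaries and figures used Python 3.11.15 and matplotlib 3.10.9. Whole reads were recovered from FPKM steps within 0.0001 of a whole number (82.23% of genes), leaving out genes whose implied length exceeded 25000 bp, a limit set after the values were seen. The voom test ran on these reads. Intervals from counting were not computed, and the depth covers recovered genes only.

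Between duodenum and ileum, libraries of the same number deviated together (7 of 7 pairs over r = 0.1, lowest 0.13). Libraries of different numbers were not correlated for comparison, so the number is not shown to pair them.

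The 4 members and the 15 gene lists were chosen with earlier results of these data known. Named genes were the members, Cyp24a1 and Vdr, any listed gene called, otherwise the 1 or 2 smallest p per list, and the 3 genes closest to each member by Pearson r over 23 libraries among genes with at least 1 TPM in at least 12. For the marker lists only some of these are printed. Fits were tested on simulated data. Alternatives covered pseudocount, filter, scaling, naming scheme, the authors' 7-library tables, voom, library block and each library left out.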

Additional observations from a re-analysis of the deposited data

Results flagged for a closer look

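Among 20 groups of 4 libraries searched for a library apart from the other 3, 4 had one, where chance alone gives about 1 in 20. All are in Cebpb or Cebpg. Cebpb was highest in 3xD5711 of the treated ileum (11.01 FPKM, next 6.84) and lowest in 3xD5734 of the treated colon (5.39 FPKM, next 6.84). Cebpg was highest in 3xD5711 of the treated ileum (37.7 FPKM, next 29.6) and in minusD5718 of the deficient colon (40.6 FPKM, next 30.6). Library 3xD5711 of the ileum was thus apart for both genes, and its Cebpd value of 60.7 FPKM was the highest of that region.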

How the results depend on the processing

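Every treated minus deficient difference of Cebpd stayed positive in all 3 regions on leaving out any 1 library (0.83 to 1.56, 0.54 to 1.28 and 0.88 to 1.22 in duodenum, ileum and colon). With the naming scheme as a covariate it was 0.91, -0.16 and 1.00. The ileum has no 4-digit deficient library, so its value there is by design the serial-only difference and rests on 1 treated library. The duodenum had 3 called genes, and 1 with pseudocount 0.1, a filter of 5 FPKM or the naming scheme as covariate, 0 by voom, and 1 to 4 with a library left out. The ileum had 0, 1 without a filter and 0 to 0 with a library left out; the colon had 0, 2 with the naming scheme as covariate and 0 to 3 with a library left out.

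Members called between regions moved with the scaling. The share of all genes called is given above for the TPM fit only, so the counts under these alternatives are not read as a result about the members. In deficient libraries, median-ratio scaling and voom each called 2 members for duodenum minus colon and 2 for ileum minus colon. These were Cebpb and Cebpg, in place of Cebpd by TPM, and then Cebpa and Cebpb. In treated libraries each called 1 for duodenum minus colon, Cebpb. For duodenum minus ileum in treated libraries no filter and the fit of the 2 groups alone each called 0. Fitting the 2 groups alone called 0 for duodenum minus ileum and 1 for ileum minus colon in deficient libraries. Leaving out 1 library gave 0 to 1 members for both duodenum minus ileum contrasts and both ileum minus colon contrasts, 1 to 2 for duodenum minus colon in deficient and 1 to 3 in treated libraries.

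Under median-ratio scaling and voom, Cebpg reversed to 0.35 and 0.34 (duodenum minus colon) and to 0.15 and 0.14 (ileum minus colon) in deficient libraries. In treated libraries it reversed to 0.016 and 0.00244 (duodenum minus ileum), 0.17 and 0.16 (duodenum minus colon) and 0.16 and 0.15 (ileum minus colon), and Cebpa to 0.22 and 0.38 (ileum minus colon). The cause was not tested beyond the shift of the median gene that median-ratio scaling removes. With a library left out, treated Cebpa ranged from -0.54 to 0.17 (ileum minus colon) and -0.19 to 0.52 (duodenum minus colon), and Cebpb from -0.11 to 0.16 (ileum minus colon).

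With the library number as a replicate block, deficient duodenum minus ileum called 0 members and deficient ileum minus colon called 1, and the other 4 contrasts kept their counts. Same-numbered libraries correlated over 0.1 in 7 of 8 duodenum and colon pairs (lowest -0.03) and 6 of 7 ileum and colon pairs (lowest 0.06). There too the number is not shown to pair them. No paired analysis was possible for treated against deficient libraries because the columns carry no replicate numbers shared by the 2 groups that the labels tie to samples.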
